A study of Mus musculus with 65 samples.

Results

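The genes described here are 10 regulators of RNA splicing, stability and translation that distinguish neural from non-neural cells, namely Ptbp1, Ptbp2, Nova1, Nova2, Srrm4, Elavl2, Elavl3, Elavl4, Msi1 and Msi2. They were chosen by name, with earlier results of these data known, and are 10 of the 25239 genes in the expression table. All 10 passed the filter on low values, a mean of 10 normalised reads, which 13964 genes passed. The study differentiated HM1 cells, a mouse embryonic stem cell line, into progenitors of the ventral neural tube and sequenced RNA from fixed cells that had been sorted by the transcription factors they contained. Day 3 neuromesodermal progenitors (NMPs) had received no SAG, an agonist of Smoothened that stands in for Sonic hedgehog. From day 3 the cultures were given retinoic acid together with 0, 10, 100 or 500 nM SAG, and on days 4, 5 and 6 SOX2-positive cells were sorted into p0-1 (from 0 and 10 nM), p2 (from 10 and 100 nM), pMN and p3 (both from 100 and 500 nM), in order from dorsal to ventral. All libraries came from the same unmodified cell line, replicates were independent differentiations, and each group had 1 to 3 libraries, which gave 65 libraries in 25 groups.

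PTBP1 and PTBP2 are closely related proteins that bind pyrimidine-rich RNA and mostly repress exons. PTBP1 is known from non-neural cells and progenitors, where it also keeps Ptbp2 transcripts from being used productively, and PTBP2 takes over as neurons form. SRRM4 activates neural microexons, the NOVA proteins and the neuronal ELAV (Hu) proteins encoded by Elavl2, Elavl3 and Elavl4 shape splicing and RNA stability in neurons, and the Musashi proteins encoded by Msi1 and Msi2 are translational regulators best known from neural stem and progenitor cells.

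The deposited annotation, on the mouse build mm10, places the members on 8 chromosomes. Ptbp1 lies at chr10:79854432-79864435 on the plus strand and Ptbp2 at chr3:119718742-119783388 on the minus strand. Nova1 is at chr12:46697898-46818767 (minus) and Nova2 at chr7:18925888-18965319 (plus). Srrm4 is at chr5:116439273-116591817 (minus), and the neuronal ELAV genes are at chr4:91250689-91400002 (Elavl2, minus), chr9:22015005-22052023 (Elavl3, minus) and chr4:110203737-110351911 (Elavl4, minus). Msi1 is at chr5:115429685-115454202 (plus) and Msi2 at chr11:88339382-88718277 (minus). The merged exons used for values per kb ran from 1551 bases in Msi1 to 8372 in Nova2. The Msi1 model ends 1496 bases before the 3′ end of the GENCODE M21 gene, and that of Nova1 ends 3381 bases before it, so reads from those 3′ ends were not assigned to these models. Ptbp1 shares 290 and 178 exon bases with E130317F20Rik and Plppr3 on the other strand, and Srrm4 shares 68 with Srrm4os. Whether the counting used strand is not given in the sources used here, and without strand reads over these bases cannot be told apart.

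Ptbp2, Srrm4, Elavl3 and Elavl4 are the members whose rise from day 4 to day 5 passed the test, and their promoters are shown for that reason. RefSeq promoter windows on GRCm38.p6, from 250 bases before to 50 bases after the start site, matched 9 of the 10 members. The windows were searched on both strands for CAGCTG and CATCTG, E-box letters that proneural factors are known to bind, and for the GLI motif GACCACCCA. The motifs do not overlap each other in these windows. The windows below run 5′ to 3′ on the gene's own strand, with matches in capitals.
Srrm4: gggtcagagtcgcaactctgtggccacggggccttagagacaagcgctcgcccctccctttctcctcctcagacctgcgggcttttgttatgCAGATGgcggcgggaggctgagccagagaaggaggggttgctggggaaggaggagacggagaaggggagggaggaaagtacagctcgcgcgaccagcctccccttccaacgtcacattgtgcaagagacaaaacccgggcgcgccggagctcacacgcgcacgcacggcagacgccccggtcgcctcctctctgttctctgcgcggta
Elavl3: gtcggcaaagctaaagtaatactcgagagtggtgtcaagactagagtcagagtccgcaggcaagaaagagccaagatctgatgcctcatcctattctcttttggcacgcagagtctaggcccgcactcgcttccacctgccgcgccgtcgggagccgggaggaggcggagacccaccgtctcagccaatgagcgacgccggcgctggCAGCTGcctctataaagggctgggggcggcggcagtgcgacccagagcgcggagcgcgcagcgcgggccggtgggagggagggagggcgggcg
Elavl4: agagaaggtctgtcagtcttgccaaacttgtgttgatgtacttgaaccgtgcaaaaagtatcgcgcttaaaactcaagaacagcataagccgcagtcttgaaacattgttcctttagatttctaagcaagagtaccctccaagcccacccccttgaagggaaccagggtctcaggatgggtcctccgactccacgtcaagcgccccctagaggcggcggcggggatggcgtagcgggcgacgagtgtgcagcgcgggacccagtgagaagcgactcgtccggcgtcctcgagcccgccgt
Ptbp2: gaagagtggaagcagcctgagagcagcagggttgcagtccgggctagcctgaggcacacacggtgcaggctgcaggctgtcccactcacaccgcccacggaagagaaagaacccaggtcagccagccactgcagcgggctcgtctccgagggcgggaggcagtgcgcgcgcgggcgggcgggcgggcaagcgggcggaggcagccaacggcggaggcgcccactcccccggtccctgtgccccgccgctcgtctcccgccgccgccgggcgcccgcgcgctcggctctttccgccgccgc
The Srrm4 window (chr5:116591768-116592067) held CAGATG, the reverse complement of CATCTG, 158 bases before the start. The Elavl3 window (chr9:22051974-22052273) held CAGCTG 43 bases before the start. The Elavl4 window (chr4:110351862-110352161) and the Ptbp2 window (chr3:119783339-119783638) held none of the 3 motifs. CAGCTG is in 16.1% and CATCTG in 17.2% of 27025 promoters of the same length, and the GLI motif is in 0.244%, so the matches are no more than a description of these windows. Among the other members, Ptbp1 held 1 match of each E-box, Nova1 and Elavl2 held 1 CAGCTG each, and none of the 9 windows held the GLI motif.

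Libraries held 7615114 to 13484815 reads assigned to genes, and 9718 to 15963 genes had at least 1 read. Intervals from counts would cover counting error alone, since the amplified reads carry no molecular identifiers, so errors were taken from the spread between libraries. There were 4 libraries with fewer than 11000 genes, namely p3 at 100 nM SAG on day 4 (replicate 3, the single library of its group, 9718 genes), p3 at 100 nM on day 5 (replicate 2, 10571), p2 at 100 nM on day 6 (replicate 3, 10541) and p3 at 100 nM on day 6 (replicate 2, 10338). Results that rest on them are given with and without them. On days 5 and 6 the sorted types carried the RNA of the proteins used to sort them, with a median of 3295 normalised reads of Olig2 in pMN against 0 in p0-1, 236 of Nkx2-2 in p3 against 0 in p0-1 and p2, and 157 of Pax6 in p3 against 1639 to 4045 in the other types. Olig2 was not absent from p3, where its median was 769. In these bulk samples fewer cells of a type and less RNA per cell cannot be told apart.

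The PTB genes and Msi2 were the most abundant members on every day. Per kb of exon, Ptbp1 ranked first on days 3 and 4 with medians of 534 and 673 normalised reads per kb, and Ptbp2 ranked first on days 5 and 6 with 649 and 709. Msi2 held rank 3 on all 4 days, with medians from 97.2 per kb on day 3 to 310 on day 6. Nova2 ranked last on every day, with medians per kb of 4.25, 1.98, 6.05 and 19.9. Neighbours in the order overlapped across libraries in all 9 pairs on days 5 and 6 and in all but Msi2 and Nova1 on day 4. On day 3 there were 4 pairs without overlap, namely Ptbp1 and Ptbp2, Ptbp2 and Msi2, Elavl2 and Srrm4, and Msi1 and Elavl4. The order of the lower members shifted, since Elavl4 moved from rank 9 on day 3 (4.90 per kb) to rank 4 on day 6 (226 per kb), while Elavl2 moved from rank 4 (50.4) to rank 8 (80.1).

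**Figure D1:**
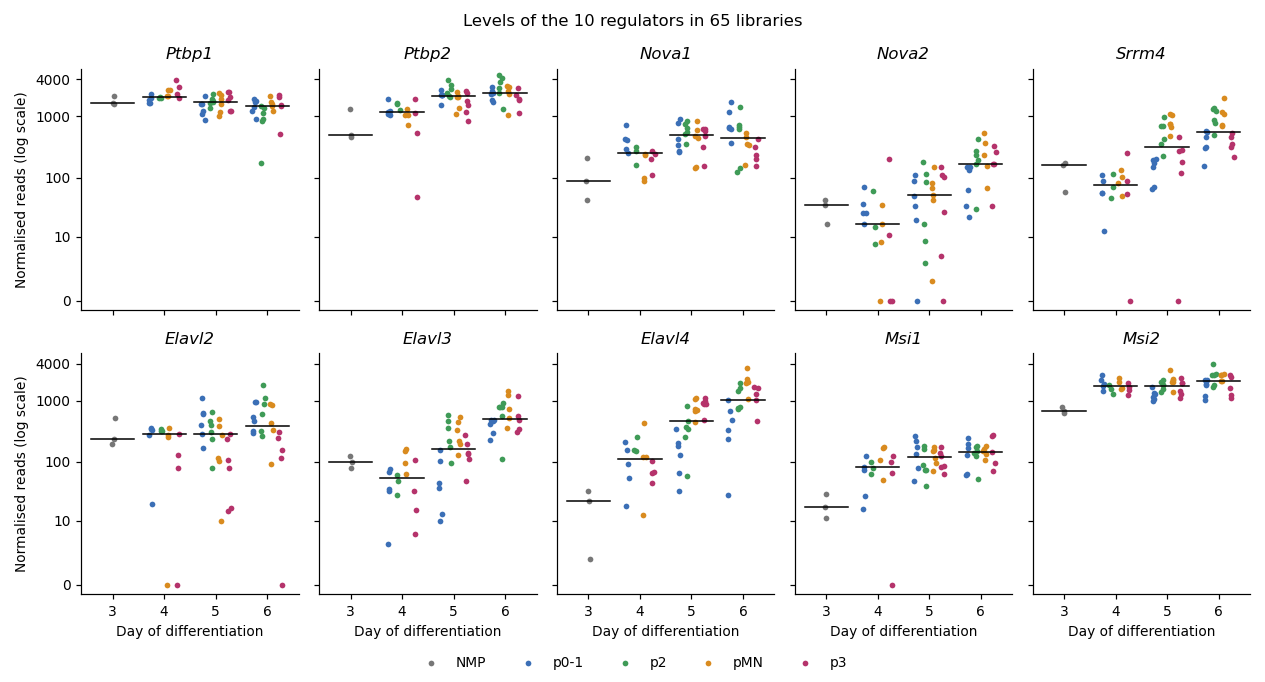
Normalised reads of each member (y axis, log scale of value + 1) by day of differentiation (x axis), with 1 point per library coloured by sorted cell type and a black bar at the median of each day. Elavl4 medians run from 22.5 on day 3 to 1037 on day 6, while Ptbp1 stays between 1466 and 2092.

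Ptbp1, the repressor of neural exons, stayed high through the time course, with no change between successive days and none within a sorted type that passed the test. Its 3 day 3 libraries held 1600.0, 1659 and 2137 normalised reads. On day 4 the lowest, median and highest values were 1622, 2092 and 3879, on day 5 they were 867, 1706 and 2539, and on day 6 they were 175, 1466 and 2213. The days overlapped throughout. The log2 change was -0.47 ± 0.19 (SE) from day 4 to day 5 (limma adjusted p = 0.105) and -0.35 ± 0.17 from day 5 to day 6 (adjusted p = 0.284). The day 6 mean was nevertheless below the day 4 mean in 8 of 8 groups of SAG concentration and cell type. In p2 all 6 day 6 libraries lay below all 3 day 4 libraries, with medians of 1018 and 2004 (log2 -1.30 ± 0.41, adjusted p = 0.0806), and in p3 5 of 5 day 6 libraries were below the day 4 median (-1.07 ± 0.41, adjusted p = 0.0802). The share of all genes that separated between days as Ptbp1 did in p2 was not counted. The lowest Ptbp1 library was replicate 1 of p2 at 100 nM on day 6, with 175 normalised reads. The same library held the highest Msi2 value (3968) and the highest Elavl2 value (1798).

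Ptbp2, the neural paralogue, rose from day 4 to day 5. It stood at 461, 499.6 and 1319 normalised reads in the day 3 libraries. The lowest, median and highest values were 47.6, 1164 and 1951 on day 4, 854, 2184 and 3847 on day 5 and 1035, 2386 and 4636 on day 6. Days 4 and 5 overlapped at the edges, but 22 of 24 day 5 libraries were above the day 4 median and the mean rose in 8 of 8 groups. The log2 change was 1.30 ± 0.17 (adjusted p = 8.3e-08), and from day 5 to day 6 it was 0.19 ± 0.15 (adjusted p = 0.569). The lowest day 4 value belonged to the single p3 library at 100 nM. Without that library the change to day 5 was 0.72 with an adjusted p of 0.0031, which is under the 2-fold minimum and no longer a call.

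The balance of the 2 paralogues was therefore compared within libraries, where the size factor cancels. Per kb, the ratio of Ptbp2 to Ptbp1 had a median of 0.288 on day 3 (range 0.199 to 0.735), 0.561 on day 4 (0.0113 to 1.11), 1.17 on day 5 (0.420 to 2.35) and 1.64 on day 6 (0.439 to 6.84). Ptbp2 exceeded Ptbp1 per kb in 0 of 3, 1 of 16, 14 of 24 and 18 of 22 libraries. The log2 ratio was -1.18 ± 1.52 (SD, n = 16) on day 4 and 0.89 ± 0.99 (n = 22) on day 6, a difference within cell types of 2.03. A two-sided permutation test with 100000 resamples gave p = 1e-05, the smallest these resamples can give (adjusted p = 0.0001 over 10 ratio tests), and 21 of 22 day 6 libraries were above the day 4 median. In p3 on days 5 and 6 the ratio was lower than in the other types by 0.61 on the log2 scale, which did not pass (permutation p = 0.0408, adjusted p = 0.0583). Without the 4 libraries with fewer than 11000 genes it was -0.82 (permutation adjusted p = 0.0166).

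**Figure D2:**
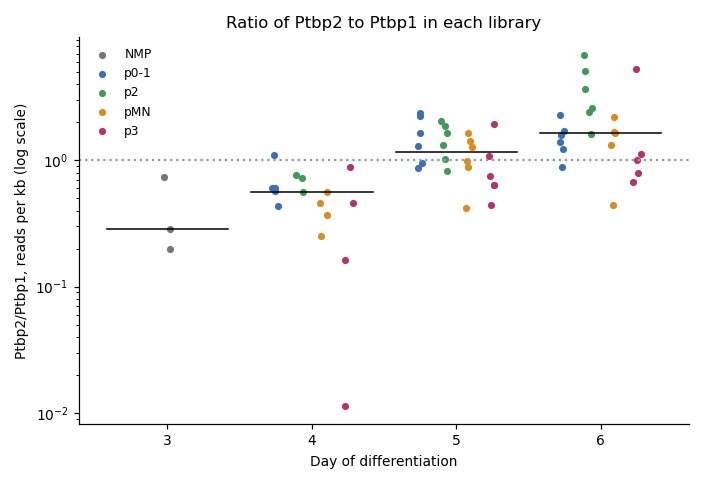
Ratio of Ptbp2 to Ptbp1 in reads per kb (y axis, log scale) by day (x axis), 1 point per library coloured by cell type, with a black bar at each day's median and a dotted line at equal levels. The ratio is above 1 in 1 of 16 day 4 libraries and in 18 of 22 day 6 libraries.

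Srrm4, the activator of microexons, rose from day 4 to day 5. Its day 3 libraries held 57.4, 163 and 175 normalised reads. The lowest, median and highest values were 0, 76.4 and 256 on day 4, 0, 315 and 1082 on day 5 and 155, 566 and 1958 on day 6. Of the day 5 libraries 21 of 24 were above the day 4 median, and the mean rose in 8 of 8 groups at each step, although the days overlapped. The log2 change was 2.02 ± 0.51 from day 4 to day 5 (adjusted p = 0.0046) and 1.23 ± 0.45 from day 5 to day 6, which did not pass (adjusted p = 0.120). The call from day 4 to day 5 held without any 1 library, and was lost with the compared libraries alone (adjusted p = 0.0277) and under a replicate block (1.77, adjusted p = 0.0143). The day 5 library at 0 was replicate 2 of p3 at 100 nM, which had 10571 genes.

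Elavl3, the ELAV gene of postmitotic neurons, was low until day 4 and rose at both later steps. The 3 day 3 libraries held 79.9, 99.2 and 124 normalised reads. Day 4 ran from 3.64 to 161 with a median of 55.0, day 5 from 10.2 to 578 with a median of 164, and day 6 from 112 to 1445 with a median of 503. From day 4 to day 5 it rose by 1.58 ± 0.40 on the log2 scale (adjusted p = 0.0046), with 19 of 24 libraries above the day 4 median. From day 5 to day 6 it rose by 1.90 ± 0.35 (adjusted p = 0.00038), with 21 of 22 libraries above the day 5 median and a higher mean in 8 of 8 groups. The first of these calls was lost by small margins without p0-1 replicate 2 at 0 nM on day 4 (1.52, adjusted p = 0.0105) or without the single p3 library at 100 nM on day 4 (1.50, adjusted p = 0.0117), and with the compared libraries alone (adjusted p = 0.0267). The second held in all 56 alternatives run.

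Elavl4 was the member with the widest rise over the time course. It was near the floor in NMPs, at 1.65, 22.5 and 32.6 normalised reads. The lowest, median and highest values were 12.8, 111 and 426 on day 4, 32.5, 472 and 1114 on day 5 and 28.3, 1037 and 3446 on day 6. It rose by 2.96 ± 0.74 from day 3 to day 4 (adjusted p = 0.0065), with 14 of 16 libraries above the day 3 median, and by 1.99 ± 0.39 from day 4 to day 5 (adjusted p = 0.00025), with 21 of 24 above the day 4 median. From day 5 to day 6 the change was 1.27 ± 0.34 with an adjusted p of 0.0220, so it was not called, although the mean was higher in 8 of 8 groups. The rise from day 3 rested on few NMP libraries, since without NMP replicate 1, the one at 1.65, it was 1.82 (adjusted p = 0.302). It was also lost without NMP replicate 2 (3.39, adjusted p = 0.0162), without pMN replicate 2 at 100 nM on day 4 (2.76, adjusted p = 0.0103) and without pMN replicate 2 at 500 nM on day 4 (2.84, adjusted p = 0.0108). It was lost too with a pseudocount of 10 (2.15, adjusted p = 0.0256), with the compared libraries alone (adjusted p = 0.0698) and by edgeR (2.69, adjusted p = 0.0314). The call from day 4 to day 5 held in all 50 alternatives, and that from day 5 to day 6 was reached without p0-1 replicate 2 at 10 nM on day 6 (1.45, adjusted p = 0.0031).

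Elavl2, the neuronal ELAV gene that is also expressed in germ cells, showed no change between days that passed the test. The day 3 libraries held 194, 239.7 and 525 normalised reads, and the medians on days 4, 5 and 6 were 284, 281 and 381. The spread was wide, from 0 to 358 on day 4, from 9.94 to 1083 on day 5 and from 0 to 1798 on day 6. The log2 changes were -1.74 ± 1.06, 1.14 ± 0.56 and 0.76 ± 0.50 at the 3 steps (adjusted p = 0.424, 0.200 and 0.474). Within libraries the log2 ratio of Elavl2 to Elavl3 was 1.37 ± 2.95 (SD, n = 16) on day 4 and -0.66 ± 2.42 (n = 22) on day 6, a difference within types of -2.15 (permutation p = 0.0106, adjusted p = 0.0265), and 22 of 22 day 6 libraries were below the day 4 median. The ratio of Elavl4 to Elavl3 moved by -0.34 over the same days (permutation p = 0.543, adjusted p = 0.543). The first of these ratios lost its call when all libraries numbered replicate 1 (-2.14, permutation adjusted p = 0.204) or replicate 2 (-1.19, adjusted p = 0.260) were left out.

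The NOVA genes, splicing regulators of neurons, differed in level and in timing. Nova1 stood at 42.8, 86.8 and 211 normalised reads on day 3. Its lowest, median and highest values were 87.2, 249.9 and 715 on day 4, 142, 495 and 903 on day 5 and 122, 448 and 1721 on day 6. None of its changes between days was called (log2 1.35 ± 0.58, 0.91 ± 0.31 and -0.10 ± 0.27, adjusted p = 0.193, 0.0458 and 0.898). Nova2 held 16.9, 35.5 and 42.1 on day 3, 0 to 204 on day 4 with a median of 16.6, 0 to 183 on day 5 with a median of 50.7 and 22.1 to 532 on day 6 with a median of 167. Its change from day 5 to day 6 was 2.25 ± 0.59 (adjusted p = 0.0166), with 18 of 22 libraries above the day 5 median, and it was called when p3 replicate 3 (2.45, adjusted p = 0.0067) or pMN replicate 3 (2.42, adjusted p = 0.0097) at 100 nM on day 5 was left out. Within libraries the log2 ratio of Nova2 to Nova1 was -4.03 ± 2.09 (SD, n = 16) on day 4 and -1.61 ± 1.75 (n = 22) on day 6, a difference within types of 2.50 (permutation p = 0.00053, adjusted p = 0.0027), higher than the day 4 median in 20 of 22 libraries. Without the libraries numbered replicate 3 the difference was 2.21 (permutation adjusted p = 0.0900).

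Of the Musashi genes, Msi2 was called between days and Msi1 was not. Msi2 rose between day 3 and day 4, from 622, 666 and 774 normalised reads in the NMP libraries to a lowest, median and highest of 1224, 1697 and 2621. The days did not overlap, since 16 of 16 day 4 libraries were above the highest NMP library. The share of all genes that separated in this way was not counted. The log2 change of Msi2 was 1.31 ± 0.25 (adjusted p = 0.00019) and held in all 29 alternatives. Msi2 then stayed at medians of 1705 on day 5 and 2122 on day 6 (log2 -0.039 ± 0.13 and 0.29 ± 0.12, adjusted p = 0.898 and 0.169). Msi1 held 11.3, 17.7 and 29.8 on day 3, 0 to 176 on day 4 with a median of 81.1, 40.2 to 268 on day 5 with a median of 120.0 and 51.1 to 273 on day 6 with a median of 147. Its change from day 3 to day 4 was 1.32 ± 0.64 (adjusted p = 0.269), with 14 of 16 libraries above the NMP median, close in size to that of Msi2. The change from day 4 to day 5 was 1.23 ± 0.34 and missed the threshold narrowly (adjusted p = 0.0101). It was called in 14 of 50 alternatives, among them those leaving out any 1 of 10 libraries of days 4 and 5 (adjusted p from 0.0045 to 0.0098), and had an adjusted p of 0.517 without the single p3 library at 100 nM on day 4, which was the library at 0. The log2 ratio of Msi2 to Msi1 was 4.86 ± 1.81 (SD, n = 16) on day 4 and 3.88 ± 0.72 (n = 22) on day 6, a difference within types of -0.93 (permutation p = 0.0205, adjusted p = 0.0410), and it did not pass without the 4 libraries with fewer than 11000 genes (-0.54, permutation adjusted p = 0.0762).

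Between days 3 and 4, 2 of the 10 members were called and rose, where 3.49% of all tested genes were called (1.32% higher and 2.18% lower). Between days 4 and 5, 4 rose, against 4.3% of all genes called (3.1% higher and 1.2% lower). Between days 5 and 6, 1 rose, against 0.852% (0.501% higher and 0.351% lower). The median log2 change of the members was 0.32, 1.26 and 0.54 at these steps, and that of all tested genes was -0.40, 0.014 and 0.0037. At an adjusted p under 0.05 with no minimum of fold, 2, 6 and 3 members differed, against 6.5%, 12.3% and 3.95% of all genes. Without the 4 libraries with fewer than 11000 genes, 2 members rose from day 4 to day 5, Srrm4 and Elavl4.

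**Figure D3:**
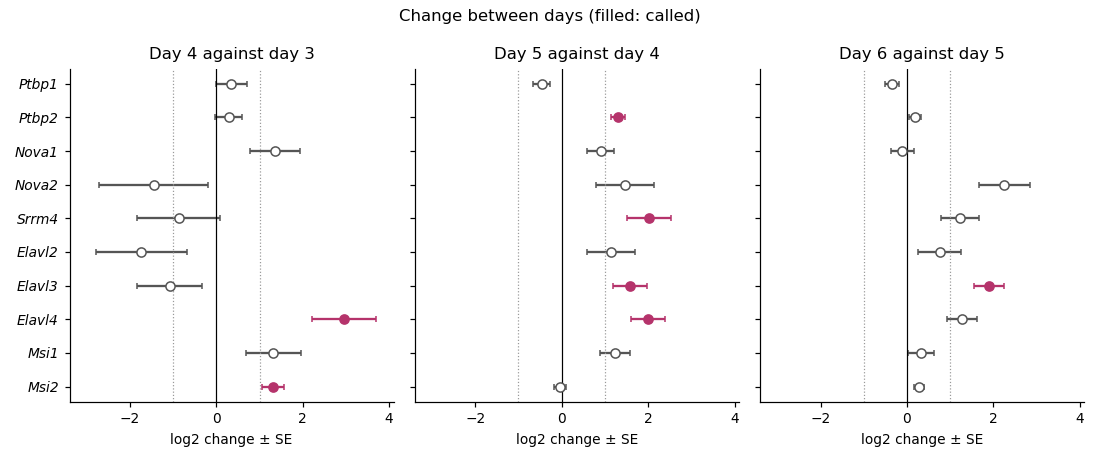
Log2 change of each member (x axis, with SE) at the 3 steps between days, from the limma fit, with filled points for called members and dotted lines at a 2-fold change. The 4 filled points from day 4 to day 5 are Ptbp2, Srrm4, Elavl3 and Elavl4, between 1.30 and 2.02.

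Cell types were then compared over days 5 and 6, where every type had 11 or 12 libraries. The p0-1 libraries shared no SAG concentration with those of pMN or p3. In each comparison of p0-1 with pMN or p3, here and below, cell type and SAG concentration therefore cannot be told apart. Their separate parts were not tested. Elavl4 was the member called between types. Its lowest, median and highest values were 28.3, 222 and 1005 normalised reads in p0-1, 58.4, 749.8 and 1953 in p2, 451, 1067 and 3446 in pMN and 468, 969 and 1644 in p3. The ranges overlapped, but 11 of 11 pMN and 11 of 11 p3 libraries were above the p0-1 median. Elavl4 was higher in pMN than in p0-1 by 2.70 ± 0.49 (adjusted p = 0.00027) and higher in p3 than in p0-1 by 2.35 ± 0.49 (adjusted p = 0.0016), and both calls held in all 33 alternatives. Thus 1 of 10 members was higher in each of these comparisons, where 0.645% and 0.888% of all genes were higher, 0.96% and 1.43% being called in either direction. Elavl4 in p2 exceeded p0-1 by 1.58 ± 0.47 without passing (adjusted p = 0.151), and pMN and p3 differed by -0.35 ± 0.50 (adjusted p = 0.862), a spread that does not show them to be alike.

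Elavl2 ran the other way across types. Its lowest, median and highest values were 171, 504 and 1083 normalised reads in p0-1, 77.6, 435 and 1798 in p2, 9.94, 326 and 875 in pMN and 0, 116 and 310 in p3. In p3, 11 of 11 libraries were below the medians of p0-1, of p2 and of pMN. The log2 difference was -2.62 ± 0.70 from p0-1 (adjusted p = 0.0203) and -2.49 ± 0.70 from p2 (adjusted p = 0.0290), so neither was called. It was called against p0-1 without p3 replicate 1 (-2.88, adjusted p = 0.0097) or replicate 3 (-2.94, adjusted p = 0.0080) at 100 nM on day 6, and without the 4 libraries with fewer than 11000 genes the adjusted p was 0.0730. The log2 ratio of Elavl2 to Elavl3 was -1.79 ± 3.12 (SD, n = 11) in p3 and 0.45 ± 1.97 (n = 35) in the other types, a difference within days of -2.32 (permutation p = 0.0044, adjusted p = 0.0145), and without those 4 libraries it was -1.08 (permutation adjusted p = 0.150).

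Srrm4 and Elavl3 had their highest levels in p2 and pMN. Srrm4 medians were 197, 745, 762 and 281 normalised reads in p0-1, p2, pMN and p3, with ranges of 64.3 to 579, 229 to 1366, 472 to 1958 and 0 to 535. The Srrm4 difference was -2.30 ± 0.65 for p3 against pMN (adjusted p = 0.0578) and 2.09 ± 0.63 for pMN against p0-1 (adjusted p = 0.0701), and neither was called. Elavl3 medians were 191, 508, 444 and 275 in the same order, and pMN exceeded p0-1 by 1.89 ± 0.49 (adjusted p = 0.0250) with 10 of 11 libraries above the p0-1 median. Msi2 in pMN exceeded p0-1 by 0.66 ± 0.16 (adjusted p = 0.0157), which is under 2-fold. Ptbp2 in p3 was below p2 by 0.67 ± 0.21 (adjusted p = 0.0516). Ptbp1, Nova1, Nova2 and Msi1 had no difference between types with an adjusted p under 0.05.

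Against p2, p0-1 or each other, the remaining type comparisons gave 0 called members with limma. For p3 against pMN, where 0.695% of all genes were called, 3 members had an unadjusted p under 0.05, and DESeq2 on the recovered reads called 1 and edgeR 0. For p3 against p2 (1.27% of genes, 0.551% lower) these counts were 3, 1 and 0, for pMN against p2 (0.107%, of which 0.0859% higher and 0.0215% lower) 2, 0 and 0, and for p2 against p0-1 (0.322%) 4, 2 and 0. Of the 13964 tested genes, 1573, 2450, 1480 and 1139 had an unadjusted p under 0.05 in these comparisons, in the same order. The shares of all genes called are limma's. DESeq2 called more of all genes than limma wherever both are given. Its counts of members therefore have no share of their own beside them. At an adjusted p under 0.05 with no minimum of fold, 3 members differed between pMN and p0-1 (1.96% of genes), 1 between p3 and p2 (4.02%), Elavl2, and 0 between p3 and pMN (1.56%).

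**Figure D4:**
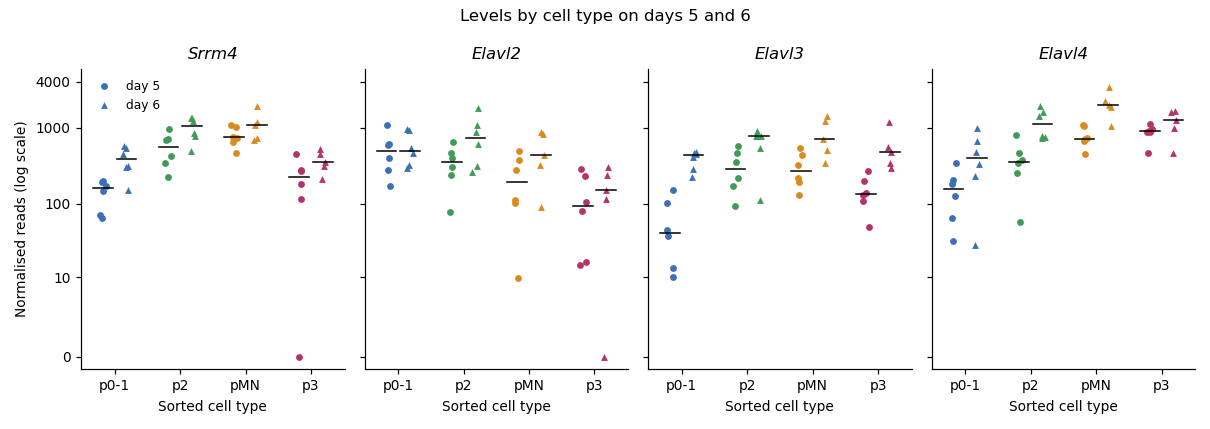
Normalised reads of Srrm4, Elavl2, Elavl3 and Elavl4 (y axis, log scale of value + 1) by sorted cell type (x axis), with 1 point per library (circles day 5, triangles day 6) and a bar at the median of each type and day. Elavl4 medians on day 6 run from 406 in p0-1 to 1978 in pMN, and Elavl2 medians are lowest in p3 on both days (92.9 and 155).

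SAG concentration was compared within each sorted type on days 5 and 6. None of the 10 members was called by limma, edgeR or DESeq2 for p0-1 at 10 against 0 nM, p2 at 100 against 10 nM, or pMN and p3 at 500 against 100 nM. Across all genes 0.0143%, 0.0358%, 0% and 0.0286% were called by limma in these comparisons, in the same order, while DESeq2 called 424, 645, 442 and 665 genes and edgeR 1, 1, 0 and 0. At an unadjusted p under 0.05 there were 0, 1, 1 and 1 members, respectively, and 681, 1142, 657 and 1627 of the 13964 tested genes. At an adjusted p under 0.05 there was no member, in p2 for example against 0.0645% of genes. Elavl2 in p3 had the widest difference among them, 3.08 ± 1.02 higher at 500 than at 100 nM (adjusted p = 0.226), with 5 of 5 libraries at 500 nM above the median at 100 nM. The 100 nM libraries include the p3 libraries with fewer than 11000 genes on days 5 and 6, which held 15.0 and 0 normalised reads of Elavl2. The median log2 difference of all tested genes in that comparison was 0.33. Standard errors of the members were between 0.22 and 1.21 in these comparisons, so differences of the size seen between days could have gone undetected for the more variable members.

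The time course was then followed within each sorted type, comparing day 6 with day 4. In p0-1, Elavl3 rose from 3.64 to 77.4 normalised reads across 5 day 4 libraries (median 36.1) to 229 to 484 across 6 day 6 libraries (median 437), with no overlap. The log2 change was 3.47 ± 0.72 (adjusted p = 0.0020), and 1 of 10 members was called where 1.42% of genes were called and 0.773% rose. This call was lost without p0-1 replicate 2 at 0 nM (3.24, adjusted p = 0.0326) or replicate 1 at 10 nM (2.89, adjusted p = 0.0140) on day 4, with the compared libraries alone (adjusted p = 0.0390) and by edgeR (3.11, adjusted p = 0.0150). In pMN, Elavl4 went from 12.8, 118, 118 and 426 in the 4 day 4 libraries to between 1063 and 3446 in the 5 day 6 libraries (median 1978), again without overlap. It rose by 4.46 ± 0.78 (adjusted p = 0.00017) and held in all 19 alternatives, as 1 of 10 members where 1.9% of genes were called and 1.32% rose. Without pMN replicate 1 at 500 nM on day 6, Ptbp2 was also called in pMN (1.46, adjusted p = 0.0094).

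In p2 no member was called between days 4 and 6 with limma, where 1.08% of genes were. The day 4 p2 group at 10 nM SAG held 1 library, replicate 3. In the day 4 mean of p2 that library weighed as much as the 2 libraries at 100 nM together. An unadjusted p under 0.05 was reached by 7 members and by 2064 of the 13964 tested genes. DESeq2 called 3 members and edgeR 0. The share of 1.08% is limma's, and DESeq2 called more of all genes than limma wherever both are given. All 6 day 6 p2 libraries exceeded all 3 day 4 libraries for Srrm4, Elavl3 and Elavl4, and lay below them for Ptbp1. The share of all genes that separated in this way, in p2 or in the other types, was not counted. The log2 changes of Srrm4, Elavl3 and Elavl4 were 3.55 ± 1.11 (adjusted p = 0.0685), 3.50 ± 0.86 (adjusted p = 0.0146) and 2.68 ± 0.85 (adjusted p = 0.0779). Without p2 replicate 3 at 100 nM on day 6, which had 10541 genes, Elavl3 was called (3.98, adjusted p = 0.0038).

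In p3, 5 of 10 members rose from day 4 to day 6, where 7.78% of all genes were called and 6.91% rose, and these calls depended in part on the single day 4 library at 100 nM. Elavl3 rose from 5.83, 15.6, 32.2 and 106 normalised reads in the 4 day 4 libraries to between 302 and 1207 in the 5 day 6 libraries. Elavl4 rose from 44.7, 65.1, 68.9 and 104 to between 468 and 1644. Neither gene overlapped between the days, and the log2 changes were 4.14 ± 0.86 (adjusted p = 0.00042) and 4.08 ± 0.85 (adjusted p = 0.00042). Without any 1 of the 9 libraries both calls held, with adjusted p up to 0.0037 for Elavl3 and 0.0030 for Elavl4, and they also held without the 4 libraries with fewer than 11000 genes (4.16 and 4.29). After quantile normalisation neither was called (Elavl3 3.01, adjusted p = 0.0270, and Elavl4 3.49, adjusted p = 0.0103), and with the compared libraries alone Elavl3 was not (adjusted p = 0.0499).

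The other 3 calls in p3, Ptbp2, Msi1 and Nova2, did not hold without that library. Ptbp2 held 47.6 normalised reads in the day 4 library at 100 nM and 538, 1128 and 1893 in the 3 at 500 nM, against 1123 to 2936 on day 6. Msi1 held 0 reads there, where counting alone allows up to 3, and 66.0, 98.8 and 125 in the others, against 71.6 to 273 on day 6. The same library also had the highest Ptbp1 value of all 65, 3879, where the other 15 day 4 libraries ran from 1622 to 3034. In the day 4 mean of p3 it weighed as much as the 3 libraries at 500 nM together. As a group of 1 it gave no estimate of spread, so the SE rests on the spread within other groups. The log2 changes were 3.10 ± 0.36 for Ptbp2 (adjusted p = 4e-09) and 4.003 ± 0.74 for Msi1 (adjusted p = 6.1e-05). Without the library they were 0.88 (adjusted p = 0.215) and 0.72 (adjusted p = 0.727). Nova2 was at 0, 0, 10.7 and 204 on day 4 and between 33.5 and 328 on day 6. It changed by 5.41 ± 1.45 (adjusted p = 0.0071), by 3.54 without the library (adjusted p = 0.221), and lost its call without any of 7 of the 9 libraries. Of the members that were not called in p3, Srrm4 was called without p3 replicate 2 at 500 nM on day 4 (3.86, adjusted p = 0.0096) and Elavl2 without p3 replicate 2 at 100 nM on day 6, the library at 0 (4.004, adjusted p = 0.0083).

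A test of whether the change from day 4 to day 6 in p3 differed from that in the other 3 types called the same 2 genes, Ptbp2 (2.16 ± 0.41, adjusted p = 0.00016) and Msi1 (3.27 ± 0.83, adjusted p = 0.0073), as 2 of 10 members where 4.1% of all genes were called and 4.07% were higher. Without the single library at 100 nM on day 4 these differences were -0.060 (adjusted p = 0.998) and -0.014 (adjusted p = 0.999). Msi1 also lost its call without any 1 of 9 other libraries, with adjusted p from 0.0105 to 0.0361. These were p0-1 replicate 2 at 0 nM, p2 replicate 3 and pMN replicate 2 at 100 nM, and p3 replicates 1 and 3 and pMN replicate 3 at 500 nM on day 4, and p3 replicate 3 at 100 nM and p3 replicates 1 and 3 at 500 nM on day 6. Without the single library at 100 nM no member was called, and without the 4 libraries with fewer than 11000 genes 8 of all genes were called in place of 573. That library also had the fewest genes. The day 5 p3 library with 10571 genes held 854 normalised reads of Ptbp2, below the lowest of the other 23 libraries of that day (1104). The day 6 libraries with 10541 and 10338 genes held 4161 and 2936, above the median of 2348 in the other 20 libraries of that day. The part of the number of genes detected in these values was not tested.

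**Figure D5:**
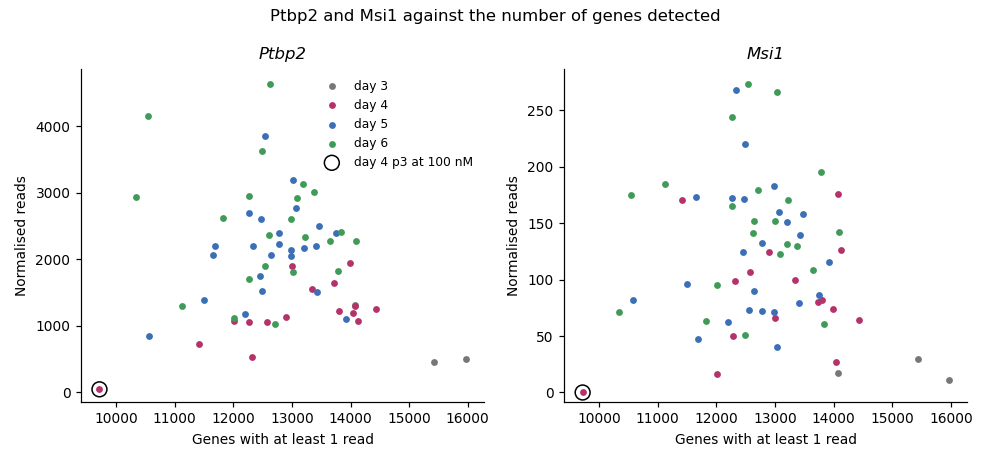
Normalised reads of Ptbp2 and Msi1 (y axes, linear) against the count of detected genes, those with any read (x axis), 1 point per library coloured by day, with the day 4 p3 library at 100 nM circled. The circled library has 9718 genes, 47.6 normalised reads of Ptbp2 and 0 of Msi1, the lowest value of each gene.

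The members were next set beside other genes of the same kind. Of 27 tested genes in a list of other neural splicing and RNA-binding regulators, 2 rose from day 3 to day 4, Igf2bp3, which encodes an RNA-binding protein of embryonic cells (1.22 ± 0.20, adjusted p = 1.4e-05), and Qk, a splicing regulator of neural and glial cells (1.10 ± 0.25, adjusted p = 0.0029). None changed from day 4 to day 5 with limma, and 1 fell from day 5 to day 6, Lin28a, which encodes an inhibitor of let-7 maturation (-1.55 ± 0.18, adjusted p = 1.1e-07). Lin28a was lower on day 6 than on day 4 in each sorted type, from -1.93 ± 0.38 in p0-1 to -2.92 ± 0.42 in pMN, and Igf2bp3 fell in p0-1 (-1.03 ± 0.19, adjusted p = 0.00041). Rbfox3, the gene of the neuronal marker NeuN, was higher in pMN than in p0-1 (2.49 ± 0.58, adjusted p = 0.0087). Rest, which encodes a repressor of neuronal genes, and Qk were called higher in p3 on day 6 than on day 4 (3.48 ± 0.44, adjusted p = 2.5e-08, and 1.27 ± 0.29, adjusted p = 0.0015). Rest was also called in the test of p3 against the other types (3.94 ± 0.49, adjusted p = 5.7e-08), and it held 5.12 normalised reads in the single p3 library at 100 nM on day 4 against 898 to 1796 in the other 3. Without that library neither gene was called in p3, with changes of -0.41 ± 0.43 for Rest (adjusted p = 0.747) and 0.61 ± 0.29 for Qk (adjusted p = 0.331), and the difference of Rest between p3 and the other types was 0.049 ± 0.49 (adjusted p = 0.999). The list's median log2 change was 0.20, 0.077 and 0.018 at the 3 steps between days, where that of the members was 0.32, 1.26 and 0.54.

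General splicing factors changed little by these measures. Of 26 such genes, 0 rose and 1 fell from day 3 to day 4, Esrp1, an epithelial splicing factor (-7.90 ± 0.91, adjusted p = 4.5e-09), and none was called at the later steps. Their median change was 0.16, 0.077 and 0.096. Among the known targets and partners of the members reported here, Cdkn1a, the gene of a cell cycle inhibitor, fell from day 3 to day 4 (-1.62 ± 0.30, adjusted p = 0.00015). Gap43, a growth cone gene whose mRNA is bound by ELAV proteins, fell from day 4 to day 5 (-2.23 ± 0.61, adjusted p = 0.0097, and -2.12, adjusted p = 0.0226, without the single p3 library at 100 nM on day 4) and rose from day 5 to day 6 (3.43 ± 0.54, adjusted p = 2.5e-05). Rcor2, which encodes a corepressor of the CoREST family, rose from day 4 to day 6 in p0-1 (1.54 ± 0.26, adjusted p = 0.00013) and in p3 (1.32 ± 0.31, adjusted p = 0.0021), where it was not called without that library (0.68, adjusted p = 0.298). The table gives gene totals, so inclusion of the exons these proteins regulate was not measured.

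Markers of neurons were present although the cells had been sorted for SOX2. Their median log2 change was -1.46, 0.086 and 1.85 at the 3 steps, where that of the members was 0.32, 1.26 and 0.54. The summed level of 16 neuron markers had medians of 4482, 2125, 1827 and 5027 normalised reads on days 3 to 6, with ranges of 3828 to 4489, 1785 to 3021, 677 to 3862 and 3137 to 9345. From day 3 to day 4, 1 of them fell, Syt1 (-6.67 ± 1.52, adjusted p = 0.0024). From day 4 to day 5, 3 rose, Nhlh1 (3.24 ± 0.68, adjusted p = 0.00054), Isl1 (3.20 ± 0.67, adjusted p = 0.00051) and Dcx (3.18 ± 0.86, adjusted p = 0.0090, and 3.12, adjusted p = 0.0161, without the single p3 library at 100 nM on day 4), and 2 fell, Stmn2 (-4.05 ± 0.88, adjusted p = 0.00093) and Gap43. From day 5 to day 6, 4 rose and none fell, among them Nhlh2 (3.50 ± 0.75, adjusted p = 0.0026) and Dcx (3.36 ± 0.76, adjusted p = 0.0041). Among types, the summed level on days 5 and 6 had medians of 3123 in p0-1, 3699 in p2, 3797 in pMN and 2032 in p3, with ranges that overlapped (677 to 5911, 1280 to 6725, 1826 to 9345 and 1564 to 6700). Of the 16 markers, 3 were called higher in pMN than in p0-1 (0.645% of all genes). In p3, 1 was higher than in p0-1 (0.888%), and 1 was higher and 2 lower than in pMN (0.38% and 0.315%). Against p2, 1 was lower in p3 (0.551%) and 1 higher in pMN (0.0859%), and none was called between p2 and p0-1 (0.322%). Whether neurons were among the sorted cells, and their part in the levels of Srrm4, Elavl3 and Elavl4, was not tested.

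Of 12 progenitor markers, 5 rose from day 3 to day 4, led by Sox1 (9.62 ± 0.56, adjusted p = 8e-19), 2 rose from day 4 to day 5 and 1 from day 5 to day 6, Fabp7 (4.24 ± 0.74, adjusted p = 0.00015), and their summed median went from 3892 to 14259, 20890.1 and 23636. Of 8 tested NMP and mesoderm markers 5 fell from day 3 to day 4, and the summed level of the full list of 11 fell from a median of 5169 on day 3 to 38.1 on day 6. Of 12 markers of glia and other cells, 7 were tested and 1 fell from day 3 to day 4, Pou5f1 (-7.55 ± 0.99, adjusted p = 1.3e-07). Gfap and Sox10 had no read on days 5 and 6, and 1 of the list rose later, Slc1a3, a radial glia gene, in p0-1 (2.23 ± 0.44, adjusted p = 0.00093).

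Likeness of pattern was measured as Pearson's r over the 25 group means of log2 values, as a description over means that share libraries and days. Among the members, Srrm4 and Elavl3 were most alike after Ptbp2 and Msi1 (r = 0.88, and 0.88 over the other 24 groups when the single p3 library at 100 nM on day 4 was left out), and Elavl3 and Elavl4 had r = 0.76 (0.75 without it). Ptbp2 and Msi1 had r = 0.90, which was 0.58 without that group. For Elavl4 the most similar genes of at least 100 normalised reads were Rhbdl3 (r = 0.88), Sox2ot (0.87) and Map1b (0.87), a microtubule-associated protein gene of neurons, with 0.89, 0.87 and 0.88 over 24 groups. For Nova2 they were Fam189a1 (0.84), Ahsa2 (0.80) and Acrbp (0.80), which were 0.78, 0.73 and 0.70 over 24 groups. For Elavl2 they were Rpgr (0.93), Zbtb10 (0.91) and Ube2q2 (0.90), which were 0.85, 0.80 and 0.78. For Msi1 they were Slc25a27 (0.93), Urm1 (0.93) and AB124611 (0.93), which were 0.67, 0.63 and 0.63. Srrm4 lay outside the rule for naming similar genes, and its closest gene was added after the values were seen. That gene was Mir124a-1hg, a host transcript of the neuronal microRNA miR-124, with r = 0.95 in both cases. Mir124a-1hg was also the gene closest to Elavl3 (r = 0.87, 0.86 over 24 groups), and its medians were 0, 0, 98.5 and 212 normalised reads on days 3 to 6, with 0 reads in 13 of 16 day 4 libraries and in 0 of 22 day 6 libraries.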

How the data were processed

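Per the labels and the study's methods, fixed HM1 cells were stained and sorted, their RNA was amplified to cDNA and sequenced, and the authors counted reads over refGene exons on mm10 with featureCounts, ignoring duplicates, after alignment in an nf-core pipeline. The versions of the aligner and counter, and whether strand was used, are not given in the sources used here. The authors had removed libraries that failed quality checks on spike-ins and on overrepresented sequences. The deposited values are a signal per gene, the reads divided by a size factor of each library (normalised reads). All 834400 values above 0 were whole multiples of a library's step within 0.001 reads, so reads were recovered, 7615114 to 13484815 per library. Amplified reads without molecular identifiers are not independent molecules. No library pair was identical.

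Values were analysed as log2(value + 1) after genes with a mean under 10 had been removed, which left 13964, so a change of a low gene is understated. limma 3.58.1 in R 4.3.3 fitted a mean for each of 25 groups over all 65 libraries, letting the variance follow the mean level (residual df 40). Changes are log2 ± SE, p-values were adjusted by Benjamini-Hochberg over all genes, and a gene was called at an adjusted p under 0.01 and more than 2-fold. Days were compared as means of group means, cell types and SAG concentrations over days 5 and 6. Every adjusted p not credited to a permutation is limma's. Ratios of paralogues used two-sided permutation tests with 100000 resamples, adjusted over 10 tests and called at 0.05. Figures used matplotlib 3.10.9.

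Alternatives were a pseudocount of 10, a minimum mean of 100 or none, quantile or TMM scaling, edgeR 4.0.16 and DESeq2 1.42.0 on the recovered reads, the compared libraries alone, a replicate block, an adjusted p under 0.05 with no fold, and leaving out each library. Leaving out the 4 libraries with fewer than 11000 genes was added after seeing the data, as was the fit of the listed genes without the single day 4 p3 library at 100 nM. The scripts were tested on simulated counts.

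All 10 members are named. From 7 other lists (neural splicing and RNA-binding regulators, general splicing factors, targets and partners, and markers of neurons, progenitors, NMPs and mesoderm, and glia and other cells), at most 4 called genes per comparison are named, those with the largest change. A gene of the target and partner list is not reported here. Similar genes are named for the 4 members with the widest range of group means. The members and lists were chosen with earlier results of these data known.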

Additional observations from a re-analysis of the deposited data

Results flagged for a closer look

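In the fit of all 65 libraries, the change from day 4 to day 6 was called as different between p3 and the other 3 types for 2 members. The test was of the difference itself, and neither call held without the single day 4 p3 library at 100 nM SAG. Ptbp2 differed by 2.16 ± 0.41 on the log2 scale (limma adjusted p = 0.00016) and Msi1 by 3.27 ± 0.83 (adjusted p = 0.0073). Without the single day 4 p3 library at 100 nM SAG, which had 9718 genes, the differences were -0.060 and -0.014. The part of that library's gene number in these values was not tested.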

How the results depend on the processing

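Of the called changes of single members, 3 alternative values changed sign, all in the difference between p3 and the other types, and 135 alternative values of changes called under neither setting also did. With a pseudocount of 10 the counts were 1 from day 3 to day 4, 3 from day 5 to day 6, 1 for p3 against pMN, 1 for p3 against p2, 2 for p3 against p0-1, 2 for pMN against p0-1, 2 and 4 for day 6 against day 4 in p2 and pMN, and 1 for the difference between p3 and the other types. Over all genes that setting called 580, 176, 122, 213, 239, 151, 174, 305 and 334, in the same order. With no filter on low values, p2 had 1 between days 4 and 6, where 245 of all genes were called. After quantile normalisation there were 4 from day 3 to day 4, 2, 1 and 1 for day 6 against day 4 in p0-1, p2 and p3, and 0 for the difference between p3 and the other types (184 of all genes, in place of 573). Over all genes quantile normalisation called 572 from day 3 to day 4, and 225, 172 and 516 in those types. At an adjusted p under 0.05 with no fold minimum there were 3 from day 5 to day 6, 1 for p3 against p2, 2 for p3 against p0-1, 3 for pMN against p0-1, and 1 and 5 for day 6 against day 4 in p2 and pMN. Of all genes 3.95%, 4.02%, 3.95%, 1.96%, 2.75% and 4.56% passed at that setting, in the same order. With the compared libraries alone the counts were 1, 2 and 2 at the 3 steps between days, 2 for pMN against p0-1, 0, 2 and 2 for day 6 against day 4 in p0-1, pMN and p3, and 1 for the difference between p3 and the other types. edgeR gave 1 from day 3 to day 4, 2 from day 5 to day 6 and 0 in p0-1 between days 4 and 6. DESeq2 gave 3 from day 5 to day 6, 1 for p3 against pMN, 1 for p3 against p2, 2 for p3 against p0-1, 3 for pMN against p0-1, 2 for p2 against p0-1, and 3, 3 and 5 for day 6 against day 4 in p0-1, p2 and pMN. DESeq2 also called more of all genes than limma, as given below for the steps between days. Without the 4 libraries with fewer than 11000 genes there were 2 from day 4 to day 5, 2 for pMN against p0-1, 3, 2 and 3 for day 6 against day 4 in p2, pMN and p3, and 0 for the difference between p3 and the other types, where Ptbp2 was at -0.16. The cause was not tested. Counts of all genes are not given for most comparisons with the compared libraries alone, with edgeR or without those 4 libraries. The same holds for DESeq2 beyond the steps between days, for the replicate block and for the fits that leave out each library. Those counts of members have no share of all genes beside them and describe the members alone.

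Over all genes DESeq2 called 1067, 2321 and 899 at the steps between days, where limma called 488, 601 and 119, and with no filter 1346 genes were called from day 3 to day 4. TMM scaling changed none of the counts of members and kept every count of genes within 1.5 times. Deviations from group means had a median correlation of 0.0266 between same-numbered libraries of a day, none over 0.1, and of -0.0134 between differently numbered ones. These pairs were pooled over SAG concentrations, so pairing of types sorted from the same dish was not tested. The replicate block gave 2 members in pMN between days 4 and 6, and Srrm4 lost its call from day 4 to day 5 under it (1.77, adjusted p = 0.0143).

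Leaving out each library gave 1 to 2 members from day 3 to day 4, 2 to 5 from day 4 to day 5, 1 to 2 from day 5 to day 6, 1 to 2 for p3 against p0-1, 0 to 1, 0 to 1, 1 to 2 and 2 to 6 for day 6 against day 4 in p0-1, p2, pMN and p3, and 0 to 2 for the difference between p3 and the other types, where Ptbp2 ran from -0.060 to 2.37 and Msi1 from -0.014 to 3.49, both lowest without the single p3 library at 100 nM on day 4.

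Leaving out all libraries of 1 replicate number, the differences in log2 ratio between days 4 and 6 ran from 2.21 to 2.78 for Nova2 to Nova1, from -1.38 to -0.51 for Msi2 to Msi1 and from -3.36 to -1.19 for Elavl2 to Elavl3. Those between p3 and the other types ran from -0.89 to -0.33 for Ptbp2 to Ptbp1, from -3.54 to -1.49 for Elavl2 to Elavl3 and from 0.64 to 1.20 for Elavl4 to Elavl3. The ratio of Msi2 to Msi1 was -0.65 with a pseudocount of 10 and -0.54 without the 4 libraries with few genes, and without those libraries the p3 differences were -0.82 for Ptbp2 to Ptbp1, -1.08 for Elavl2 to Elavl3 and 1.57 for Elavl4 to Elavl3. The spread of members at low levels, with libraries at 0, limits what these libraries can show.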
